A study of Mus musculus with 44 samples.

Results

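The 9 genes described here serve antigen presentation to CD4 T cells: H2-Aa, H2-Ab1, H2-Eb1, H2-DMa, Cd74 and Ciita of the MHC class II pathway, and the costimulation genes Cd80, Cd86 and Cd83. Each was taken because it has a probe set that carries its symbol alone, and each was found, so that 9 of 19938 genes are described. Cd80 has 2 such probe sets and is given by the brighter one unless stated otherwise, while each of the others has 1. The genes were measured on 44 Affymetrix mouse arrays of macrophages (MFs) isolated from the tibialis anterior muscle after a cardiotoxin injection, a snake venom toxin that kills muscle fibers and sets off infiltration and regeneration. CD45+ cells were enriched with magnetic beads and then sorted into a Ly6C+ F4/80low and a Ly6C- F4/80high fraction, where Adgre1 encodes the second marker.

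Wild-type (WT) MFs of C57B6/J mice labelled Ly6C+ F4/80low came from day 1 (n = 4), day 2 (n = 6) and day 4 (n = 4) after injury, and those labelled Ly6C- F4/80high from day 2 (n = 6). Knockout (KO) MFs carried PPARg fl/fl and LysM Cre+ on C57B6/J, and gave Ly6C+ MFs of day 1 (n = 4), of day 2 (n = 5) and of day 4 (n = 4), beside day 2 Ly6C- MFs (n = 5). Cre of this line is expressed from the lysozyme gene Lyz2, in MFs, monocytes and neutrophils alike, and the WT mice are not described as carrying either allele. WT mice given rosiglitazone, a synthetic agonist of PPARg, yielded day 2 Ly6C+ (n = 3) and Ly6C- (n = 3) MFs. The labels call the arrays biological replicates and do not name the animals, and the series design speaks of 3 animals, so p-values measure the spread between these arrays. The age and sex of the mice and the rosiglitazone dose were not used here. Values are log2 RMA signals, in which a step of 1 is a doubling, and differences are taken only within a probe set. A marker's level is set beside the median of the array only to say how dim it was.

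Some labels were not borne out by their markers. Pparg read 10.3 ± 0.379 (SD, n = 6) in WT and 10.4 ± 0.133 (SD, n = 5) in KO day 2 Ly6C+ MFs, so its probe set, whose position relative to the floxed exons was not determined here, did not tell the genotypes apart. Lyz2, where Cre resides, lay between 9.07 and 9.96 on the 18 KO arrays and between 12.6 and 13.2 on the WT arrays, except in WT day 2 replicates 1 to 3, which read 8.67 to 8.99 in Ly6C+ and 9.11 to 9.29 in Ly6C- MFs. Results of the 9 genes that use the WT day 2 arrays are therefore also given for replicates 1 to 3 and for replicates 4 to 6, while the gene lists were counted with all 6 arrays only. The day 4 arrays labelled Ly6C+ F4/80low had a mean Adgre1 of 12.3, above the 12.1 of day 2 Ly6C- MFs, and a probe set that matches both Ly6c1 and Ly6c2 at 9.21 to 10.8, below the 11.7 to 12.2 of day 2 Ly6C+ MFs. In day 2 Ly6C- MFs the mean of this probe set was lower still, at 8.78 in WT and 9.27 in KO, against 9.88 and 9.83 at day 4. The arrays are called day 4 MFs here.

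MHC class II molecules display peptides from ingested material to CD4 T cells. H2-Aa and H2-Ab1 encode the alpha and beta chains of I-A, and H2-Eb1 the beta chain of I-E, whose partner chain is not made in mice of the b haplotype such as C57BL/6. Cd74, the invariant chain, escorts the new dimers, H2-DMa forms part of the peptide exchange factor, and Ciita is the transactivator that controls the whole set through factors bound to the X and Y boxes of these promoters. Cd80 and Cd86 are ligands of CD28 and CTLA-4 on T cells, and Cd83 is a surface protein of activated antigen-presenting cells that opposes MARCH1, the ligase that removes class II and CD86 from the surface. On GRCm38.p6 H2-Ab1 spans chr17:34263227-34269418, H2-Aa chr17:34282744-34287823, H2-Eb1 chr17:34305867-34316674 and H2-DMa chr17:34119693-34139101, within one stretch of the MHC. Ciita lies at chr16:10480014-10531064, Cd86 at chr16:36568956-36666158, Cd80 at chr16:38457430-38495958 and Cd83 at chr13:43785112-43803133.

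The promoters of H2-Aa and H2-Eb1 are shown because Ciita acts through their X and Y boxes, and that of Cd80 is shown beside them as a costimulation gene. The 250 bases before the start site are given 5′ to 3′ on the strand of the gene, from RefSeq on GRCm38.p6, for H2-Aa at chr17:34287824-34288073 on the minus strand, H2-Eb1 at chr17:34305617-34305866 on the plus strand and Cd80 at chr16:38458683-38458932 on the plus strand. Capitals mark GCAAC, the core of an X box, and CTGATTGG, a Y box.
H2-Aa: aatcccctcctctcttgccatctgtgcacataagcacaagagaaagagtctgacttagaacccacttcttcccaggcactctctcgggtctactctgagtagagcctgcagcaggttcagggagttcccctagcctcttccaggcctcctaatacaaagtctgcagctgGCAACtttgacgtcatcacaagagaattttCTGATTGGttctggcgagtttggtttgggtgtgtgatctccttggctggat
H2-Eb1: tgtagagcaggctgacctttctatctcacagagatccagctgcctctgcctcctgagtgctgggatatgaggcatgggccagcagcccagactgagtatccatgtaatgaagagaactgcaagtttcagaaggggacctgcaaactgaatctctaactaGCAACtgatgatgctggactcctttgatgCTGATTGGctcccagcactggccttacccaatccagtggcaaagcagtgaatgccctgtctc
Cd80: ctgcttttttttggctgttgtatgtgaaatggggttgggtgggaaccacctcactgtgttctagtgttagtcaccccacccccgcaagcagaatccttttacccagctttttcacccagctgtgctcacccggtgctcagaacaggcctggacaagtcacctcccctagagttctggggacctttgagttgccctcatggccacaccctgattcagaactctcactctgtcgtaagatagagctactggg
Both motifs were sought on either strand of windows that ran from 250 bases before to 50 after each start. GCAAC began at position -81 from the start of H2-Aa, with 25 bases between it and the Y box, and at position -91 from the start of H2-Eb1, with 24 bases between them. Among 32851 mouse promoters, 4.1% held CTGATTGG, 35.2% held GCAAC and 0.116% held GCAAC followed within 30 bases by CTGATTGG. The Cd80 window lay inside the span of its gene. So did the 2 windows of H2-DMa, chr17:34122582-34122881 and chr17:34125268-34125567 on the plus strand. None of these windows held CTGATTGG, and the upstream ends of both spans were not searched. The motifs were chosen after these sequences had been seen, and a match describes the window, not a bound site. Of the 9 genes, 4 had a promoter in the table used.

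The class II genes and the CD28 ligands followed separate courses over the 10 groups. Class II levels were lowest in day 2 Ly6C- MFs, intermediate in Ly6C+ MFs of day 1 and day 2, and highest at day 4. Cd80 and Cd86 were highest in day 1 Ly6C+ MFs and low in both day 2 Ly6C- and day 4 MFs. For H2-Ab1 the 4 WT arrays of day 1 read 11.43, 11.36, 11.29 and 11.27. WT day 2 Ly6C+ MFs ran from 11.55 to 12.25 with a median of 11.92, and WT day 2 Ly6C- MFs from 10.12 to 11.12 with a median of 10.47. WT day 4 MFs read 12.34, 12.44, 12.53 and 12.45. Thus all day 4 arrays lay above, and all Ly6C- arrays below, every other WT array of this gene without drug. The share of all genes ordered in this way was not counted.

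**Figure D1:**
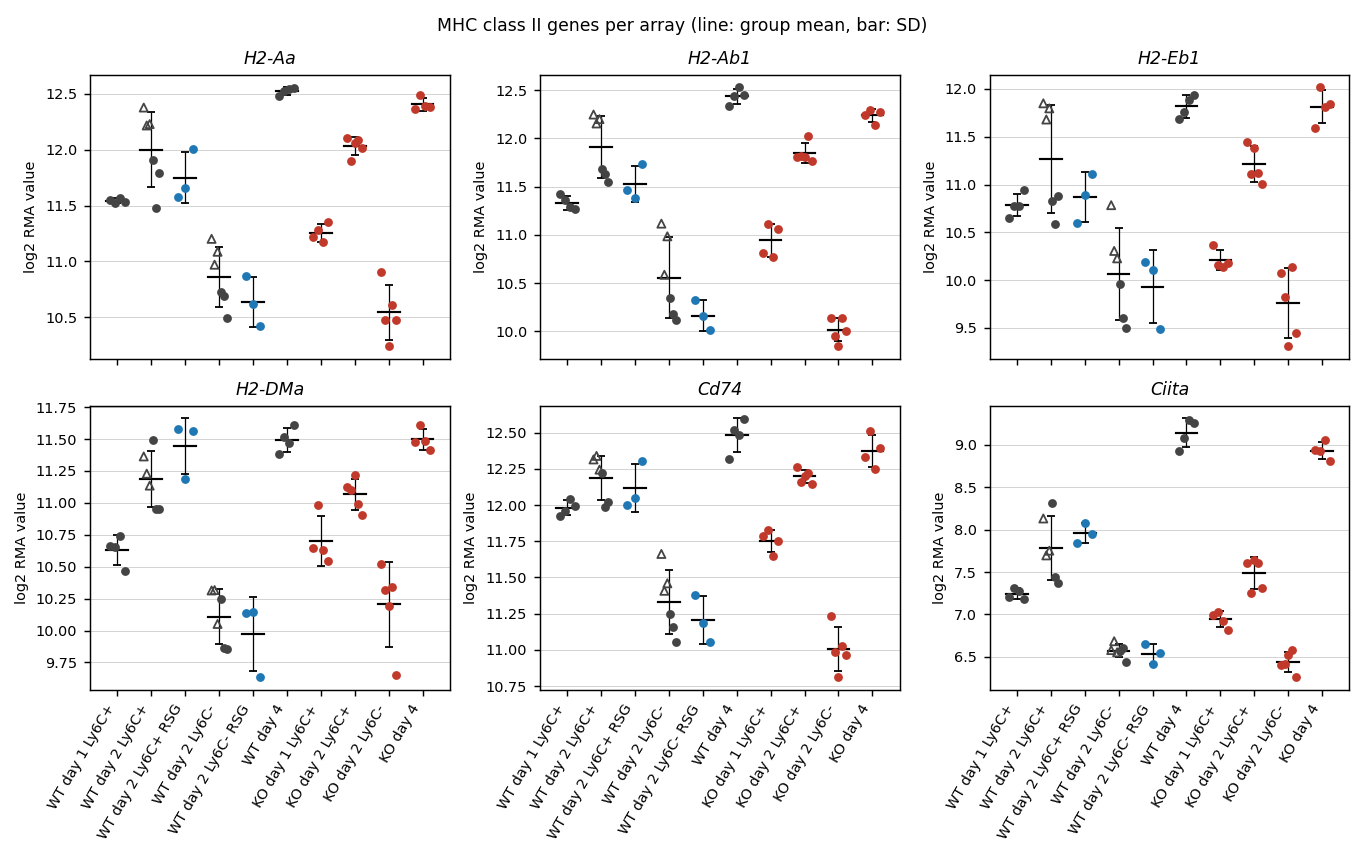
Log2 RMA value of the 6 class II genes on each of 44 arrays, by group on the horizontal axis (grey, WT; blue, WT with rosiglitazone, RSG; red, KO; open triangles, WT day 2 replicates 1 to 3); lines are group means and bars SDs. Ly6C- groups are lowest and day 4 groups highest or, for H2-DMa, level with the rosiglitazone Ly6C+ group. Within each subset the triangles lie above the other untreated WT day 2 points for H2-Aa, H2-Ab1, H2-Eb1 and Cd74.

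KO MFs held the same order. H2-Ab1 read 10.81, 11.12, 10.78 and 11.06 at day 1, 11.81, 11.81, 11.80, 12.03 and 11.77 in day 2 Ly6C+, 10.14, 9.96, 9.85, 10.14 and 10.01 in day 2 Ly6C-, and 12.24, 12.29, 12.14 and 12.28 at day 4. These 4 KO groups did not overlap. Rosiglitazone MFs read 11.46, 11.38 and 11.74 in Ly6C+ and 10.33, 10.16 and 10.01 in Ly6C-, again without overlap. How many of all genes separate these groups was not counted, so the lack of overlap only describes this gene.

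In the order of the 10 group means, most neighbours could not be separated by their arrays. Of 9 neighbouring pairs, arrays overlapped in 6 for H2-Aa, H2-Ab1 and Ciita, in 8 for H2-Eb1, Cd74, Cd80 and Cd86, and in 9 for H2-DMa and Cd83. The clearest break of Ciita in this order, of 0.73, lay between its lowest day 4 array (8.81) and the highest array of the next group (8.08), rosiglitazone Ly6C+. The highest array outside day 4 was WT day 2 Ly6C+ replicate 4, at 8.32, also below both day 4 groups. Every Ly6C+ array of day 1 and day 2 lay above every Ly6C- and day 4 array for Cd80, with 10.37 the lowest of the former and 9.91 the highest of the latter. The same held for Cd86, at 10.51 and 9.90. For H2-Aa, H2-Ab1, H2-Eb1, Cd74 and Ciita a break lay between WT and KO at day 1. Such breaks were not counted over all genes.

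Ciita itself covered the widest range of the class II members. WT day 2 Ly6C- MFs ran from 6.44 to 6.68 with a median of 6.58, day 2 Ly6C+ MFs from 7.37 to 8.32 with a median of 7.72, and WT day 4 MFs read 8.93, 9.08, 9.29 and 9.26. KO MFs read 6.402, 6.418, 6.519, 6.578 and 6.267 in day 2 Ly6C-, 7.61, 7.26, 7.64, 7.61 and 7.31 in day 2 Ly6C+, and 8.94, 8.92, 9.06 and 8.81 at day 4. In either genotype the 3 sets did not overlap, and the share of all genes for which this holds was not counted.

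Ly6C- and Ly6C+ MFs of day 2 were compared first, to ask how the sorted subsets differ in antigen presentation genes. Of the 9 genes, 8 were lower in WT Ly6C- MFs and Cd83 did not pass (limma, adjusted p below 0.05), where 45.2% of all genes passed and 23.0% passed as lower. The median difference of the 6 class II genes was -1.17 and that of all genes -0.07. H2-Ab1 fell by 1.35 ± 0.12 on the log2 scale (SE, 2.56-fold, adjusted p = 7.7e-12), and all 6 Ly6C- arrays lay below all 6 Ly6C+ arrays. Ciita fell by 1.21 ± 0.10 (SE, adjusted p = 7.8e-13) and Cd74 by 0.86 ± 0.08 (SE, adjusted p = 1.8e-11). The groups overlapped among the 8 only for H2-Eb1, with 5 of 6 Ly6C- arrays below every Ly6C+ array. The share of all genes without overlap was not counted. The class II differences ran from -0.79 for Cd74 to -1.34 for H2-Eb1 with replicates 1 to 3 alone, and from -0.92 for Cd74 to -1.41 for H2-Ab1 with replicates 4 to 6 alone, and each of the 6 passed in both.

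Cd86 showed the largest subset difference of the 9 in WT. It ran from 8.51 to 9.73 in Ly6C- MFs, with a median of 9.45, and from 10.51 to 11.33 in Ly6C+ MFs, with a median of 11.13. It fell by 1.66 ± 0.16 (SE, 3.16-fold, adjusted p = 2.3e-11) and Cd80 by 1.41 ± 0.10 (SE, 2.65-fold, adjusted p = 1.6e-15). Cd83 differed by -0.37 ± 0.31 (SE, adjusted p = 0.329, 95% interval -0.998 to 0.259). Replicate 4 was low in both subsets, at 9.55 in Ly6C+ and 9.25 in Ly6C- MFs, against 10.83 to 11.76 on the other 10 arrays. Without both of its arrays Cd83 differed by -0.38 (adjusted p = 0.215), and without its Ly6C+ array alone by -0.68 (adjusted p = 0.0474). Fitted on the compared groups alone, Cd83 passed in KO (-0.24, adjusted p = 0.024) and did not in WT (adjusted p = 0.443). With the replicate number as a block in those fits it passed in KO (adjusted p = 0.0109) and in WT (adjusted p = 0.00231).

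**Figure D2:**
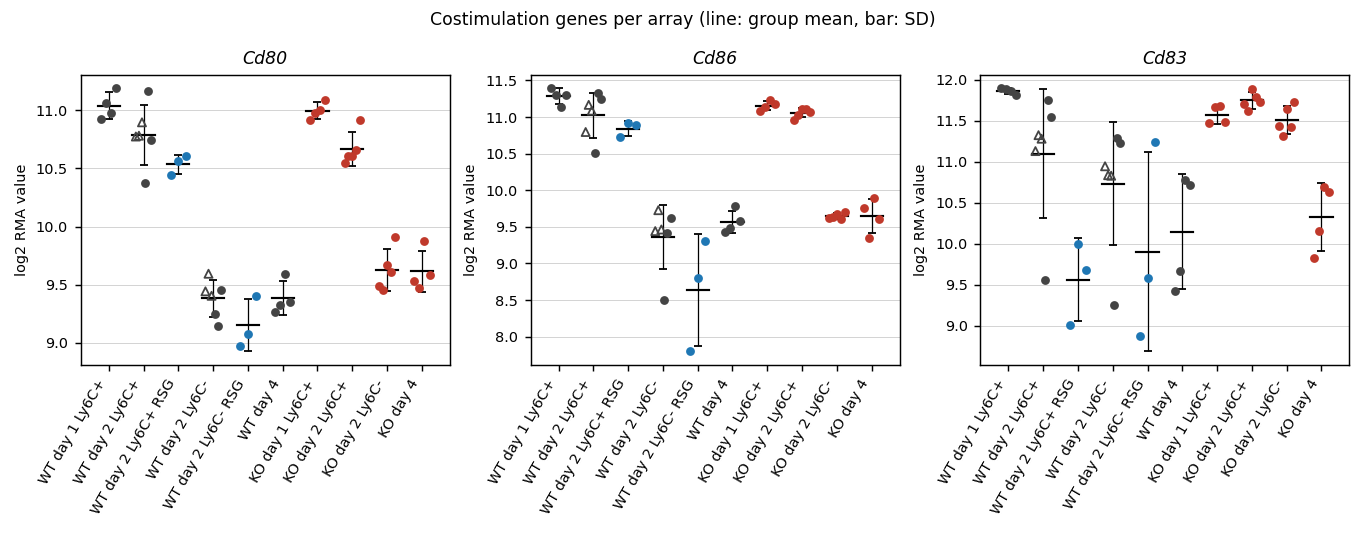
Log2 RMA value of Cd80, Cd86 and Cd83 on each of 44 arrays, with groups, colors, triangles, lines and bars as in the plot of the class II genes. Cd80 and Cd86 fall into a high band (day 1 and day 2 Ly6C+) and a low band (day 2 Ly6C- and day 4), while Cd83 scatters widely within WT day 2, WT day 4 and rosiglitazone groups.

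The same 8 genes were lower in Ly6C- MFs of the KO and of rosiglitazone-treated mice, each set with its own Ly6C+ arrays. In KO, 38.4% of all genes passed and 18.6% passed as lower. There H2-Ab1 fell by 1.83 ± 0.14 (SE, 3.54-fold, adjusted p = 4.3e-14) and all 5 Ly6C- arrays lay below all 5 Ly6C+ arrays for each of the 8. The share of all genes that separated likewise was not counted. With rosiglitazone, 23.2% of all genes passed and 8.68% passed as lower. Cd86 there read 7.80, 8.80 and 9.31 in Ly6C- and 10.72, 10.91 and 10.89 in Ly6C+ MFs and fell by 2.21 ± 0.23 (SE, 4.61-fold, adjusted p = 2.6e-10). H2-Eb1 under rosiglitazone fell by 0.94 ± 0.26 (SE, adjusted p = 0.00645), and without Ly6C- rosiglitazone replicate 3 the value was -0.72 (adjusted p = 0.0748).

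The subset difference was next compared between genotypes and between treated and untreated mice. No interaction passed for any of the 9 genes. For genotype and subset, 4 of 9 had an unadjusted p below 0.05 and 0.0100% of all genes passed. The interaction estimates were -0.47 ± 0.18 for H2-Ab1, -0.34 ± 0.12 for Cd74, -0.35 ± 0.17 for H2-Aa and 0.37 ± 0.14 for Cd80 (SE, adjusted p = 1.0 for each). For rosiglitazone and subset, 0 of 9 had an unadjusted p below 0.05 and 0.0150% of all genes passed, with intervals from -1.10 to 0.01 for Cd86 and from -0.38 to 1.80 for Cd83.

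From day 1 to day 2, 4 of the 6 class II genes rose in WT and 5 in KO Ly6C+ MFs. In WT, 4 of 9 genes rose and none fell, where 9.69% of all genes passed and 6.51% rose. Centring each array on its median changed the share of rises among all calls from 67.2% to 46.8%, and the 4 calls were the same. H2-Ab1 rose by 0.58 ± 0.14 (SE, 1.49-fold, adjusted p = 0.0049), H2-DMa by 0.56 ± 0.13 (adjusted p = 0.0028), Ciita by 0.54 ± 0.11 (adjusted p = 0.00128) and H2-Aa by 0.46 ± 0.13 (adjusted p = 0.0148). Cd80, Cd86 and Cd83 did not pass, with differences of -0.25, -0.26 and -0.77.

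The size of this rise differed between the sets of WT day 2 arrays. With replicates 1 to 3 alone, H2-Aa rose by 0.73, H2-Ab1 by 0.87 and H2-Eb1 by 0.99 (adjusted p = 3.8e-05), and all 6 class II genes passed. With replicates 4 to 6 alone, H2-Ab1, H2-DMa and Ciita passed, H2-Aa differed by 0.19 (adjusted p = 0.346) and H2-Eb1 by -0.02 (adjusted p = 0.966). Without replicate 5, H2-Eb1 (0.62, adjusted p = 0.0445) and Cd80 (-0.33, adjusted p = 0.039) passed too. Fitted on the 2 groups alone, 1 of the 4 genes passed, H2-DMa. With the replicate number as a block in that fit, Cd83 passed as lower (-1.05, adjusted p = 0.0359) and H2-Eb1 as higher (0.75, adjusted p = 0.0463).

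In KO, 5 of 9 genes rose and none fell, where 8.64% of all genes passed and 6.06% rose. Centring took the share of rises among all calls there from 70.2% to 59.6%. H2-Eb1 read 10.37, 10.16, 10.14 and 10.18 at day 1 and 11.45, 11.11, 11.39, 11.12 and 11.01 at day 2, a rise of 1.00 ± 0.22 (SE, 2.01-fold, adjusted p = 0.00251). H2-Ab1 rose by 0.90 ± 0.14 (SE, adjusted p = 6e-05) and H2-Aa by 0.78 ± 0.13 (SE, adjusted p = 0.00015). Cd74 rose by 0.45 and Ciita by 0.54, while H2-DMa differed by 0.37 (adjusted p = 0.0735; 0.0385 without KO day 1 replicate 2) and Cd80 by -0.33 (adjusted p = 0.0571; 0.0222 without KO day 2 replicate 5). Fitted on the compared groups alone, H2-DMa (adjusted p = 0.0306) and Cd80 (adjusted p = 0.0246) passed. Both also passed with the replicate number as a block (adjusted p = 0.0171 and 0.00654), and Cd80 with a filter on dim probe sets (adjusted p = 0.0427).

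At day 4 the 2 groups of genes moved in opposite directions. In WT, relative to day 2 Ly6C+ MFs, the 6 class II genes were higher and Cd80, Cd86 and Cd83 lower, so that 9 of 9 passed, where 49.8% of all genes passed, 23.8% as higher and 26.0% as lower. Ciita rose by 1.36 ± 0.11 (SE, 2.56-fold, adjusted p = 4.2e-13). H2-Ab1 rose by 0.53 ± 0.14 (SE, adjusted p = 0.00181) and H2-Aa by 0.52 ± 0.13 (SE, adjusted p = 0.00074), and for both genes all 4 day 4 arrays lay above all 6 day 2 arrays. Cd86 read 9.43, 9.49, 9.78 and 9.58 at day 4 and fell by 1.45 ± 0.18 (SE, 2.74-fold, adjusted p = 5.6e-09). Cd80 fell by 1.40 ± 0.11 (SE, 2.65-fold, adjusted p = 2.7e-14), also without overlap. Separation of this kind was not counted over all genes.

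The smaller class II rises rested on which WT day 2 arrays were used. Against replicates 1 to 3 alone, H2-Eb1 differed by 0.04 (adjusted p = 0.837), H2-DMa by 0.25 (adjusted p = 0.125) and Cd74 by 0.18 (adjusted p = 0.0805). Against replicates 4 to 6 alone, H2-Eb1 rose by 1.05 (adjusted p = 2.5e-06) and Cd74 by 0.40 (adjusted p = 0.00043), while H2-DMa (0.36, adjusted p = 0.0593) and Cd83 (-0.81, adjusted p = 0.148) did not pass. The rises of Ciita (1.28 and 1.43), H2-Aa (0.25 and 0.80) and H2-Ab1 (0.24 and 0.82) and the falls of Cd80 (-1.43 and -1.38) and Cd86 (-1.45 and -1.46) passed with either set. Fitted on the 2 groups alone, 7 genes passed, without H2-Eb1 (adjusted p = 0.0838) and Cd83 (adjusted p = 0.0693). With the replicate number as a block in that fit, where day 2 replicates 5 and 6 have no partner, H2-DMa (0.19) and Cd74 (0.20) did not pass either and H2-Eb1 differed by 0.28. Leaving out 1 array also ended calls. H2-DMa lost its call (adjusted p 0.0506 to 0.123) without day 2 Ly6C+ replicate 2, 3, 5 or 6 or day 4 replicate 2, 3 or 4. H2-Eb1 lost it (adjusted p 0.0642 to 0.0874) without day 2 Ly6C+ replicate 4, 5 or 6 or day 4 replicate 3 or 4, and Cd83 (adjusted p 0.0529 to 0.108) without day 2 Ly6C+ replicate 5 or day 4 replicate 1 or 2.

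In KO, 5 class II genes rose and the 3 costimulation genes fell, where 44.8% of all genes passed, 22.3% as higher and 22.5% as lower. Ciita rose by 1.45 ± 0.12 (SE, 2.73-fold, adjusted p = 2.5e-13), H2-Eb1 by 0.60 ± 0.22 (SE, adjusted p = 0.0215) and Cd74 differed by 0.17 ± 0.09 (SE, adjusted p = 0.13). Cd86 fell by 1.41 ± 0.18 (SE), Cd83 by 1.42 ± 0.36 (SE, adjusted p = 0.0013) and Cd80 by 1.05 ± 0.11 (SE). Without KO day 4 replicate 2, 5 genes passed, since H2-Aa, H2-Ab1 and H2-Eb1 then had adjusted p values of 0.0521, 0.0541 and 0.0635. H2-Ab1 also lost its call without KO day 4 replicate 1 or 4 (adjusted p = 0.0511 and 0.0555), and H2-Ab1 and H2-Eb1 without KO day 2 Ly6C+ replicate 5 (adjusted p = 0.0528 and 0.0544). The interaction of genotype with the change from day 2 to day 4 passed for 0 of 9 genes, of which 1, Cd80 at 0.35 ± 0.16 (SE, adjusted p = 0.53), had an unadjusted p below 0.05, and 0.0301% of all genes passed. With replicates 1 to 3 alone 0 of 9 genes passed in any of the 3 interactions, where 0.186% of all genes passed for genotype and subset, 2.67% for rosiglitazone and subset and 4.8% for genotype and day 4. With replicates 4 to 6 alone 0 of 9 passed as well, where the shares were 0.0100%, 0% and 0.0451%.

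**Figure D3:**
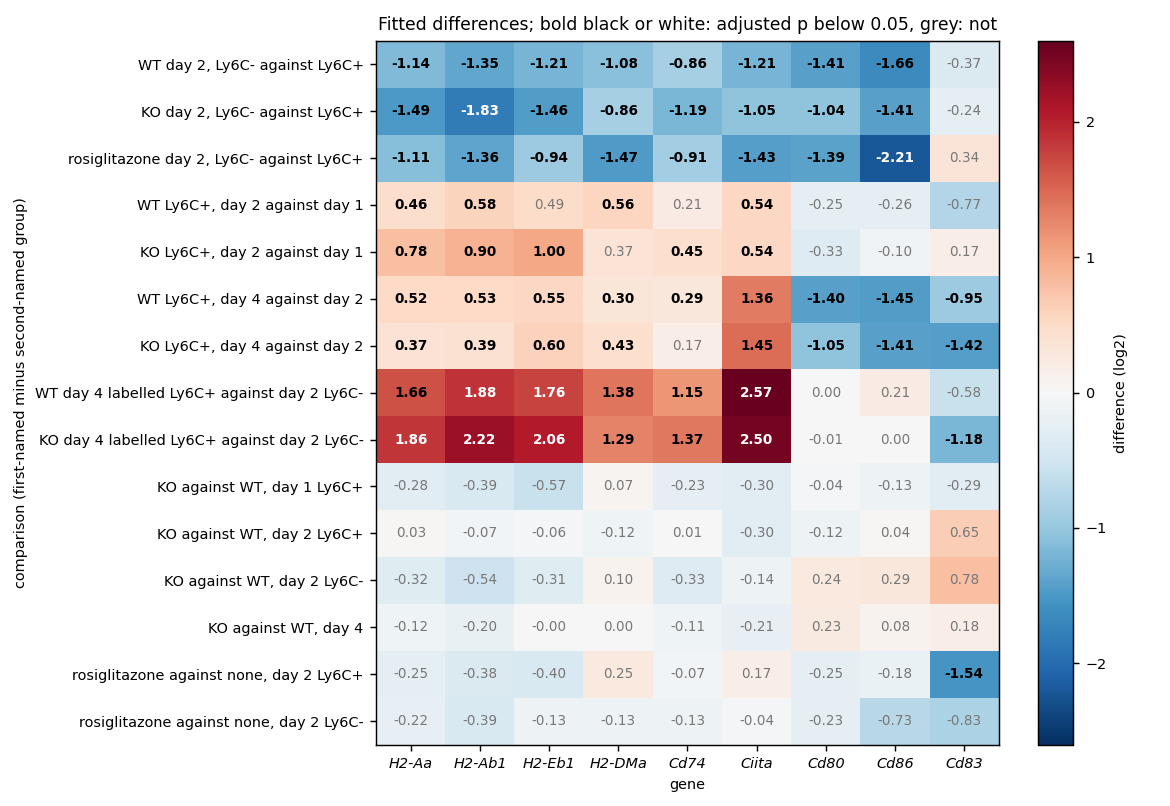
Fitted log2 difference of the 9 genes (columns) in 15 comparisons (rows, first-named minus second-named group), colored from blue (lower) to red (higher); bold values have a limma adjusted p below 0.05 and grey values do not. In the rows of day 4 against day 2 the class II columns are red and the Cd80 and Cd86 columns blue or near 0. In the Ly6C- against Ly6C+ rows every column but Cd83 is blue and bold, and Cd83 is not bold. In the rows of KO against WT and of rosiglitazone against none the only bold value is Cd83 at -1.54.

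Day 4 MFs were also set against day 2 Ly6C- MFs, to which they lay nearer in mean Adgre1 than to day 2 Ly6C+ MFs. In WT, 6 of 9 genes were higher and none lower, where 29.3% of all genes passed and 14.1% were higher. Ciita was 2.57 ± 0.11 higher (SE, 5.92-fold, adjusted p = 2.2e-21), H2-Ab1 1.88 ± 0.14 (SE, 3.68-fold) and H2-Aa 1.66 ± 0.13 (SE, 3.17-fold), each without overlap. Overlap was not counted over all genes. With replicates 1 to 3 alone H2-Ab1 was 1.54 and Ciita 2.53 higher, with replicates 4 to 6 alone 2.222 and 2.599, and the same 6 genes passed in both. Cd80 differed by 0.00 (95% interval -0.22 to 0.22) and Cd86 by 0.21 (95% interval -0.15 to 0.57). In KO, the 6 class II genes were higher and Cd83 lower, where 24.8% of all genes passed and 13.1% were higher. There H2-Ab1 was 2.22 ± 0.14 higher (SE, 4.65-fold), Cd80 differed by -0.01 (95% interval -0.24 to 0.21) and Cd86 by 0.00 (95% interval -0.37 to 0.37).
Cd83 read 9.43, 9.66, 10.78 and 10.72 in WT and 9.82, 10.16, 10.70 and 10.63 in KO day 4 MFs. Against day 2 Ly6C- MFs it differed in KO by -1.18 ± 0.36 (SE, adjusted p = 0.0115). Without KO day 4 replicate 1 the value was -1.01 (adjusted p = 0.058). In WT it differed by -0.58 ± 0.35 (SE, adjusted p = 0.23), and without replicate 4 of the Ly6C- arrays by -0.88 (adjusted p = 0.0335).

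A plot of the mean of H2-Aa, H2-Ab1, H2-Eb1, H2-DMa and Cd74 against that of Cd80 and Cd86, each gene centred on its mean over 44 arrays, separated the conditions. The 8 day 4 arrays lay at 0.75 to 0.97 for class II and -0.84 to -0.30 for Cd80 and Cd86. The 14 day 2 Ly6C- arrays lay at -1.17 to -0.24 and -1.80 to -0.38, and the 14 day 2 Ly6C+ arrays at 0.07 to 0.78 and 0.25 to 1.06. Day 1 arrays were at -0.38 to 0.03 and 0.81 to 1.06. Thus the pair of CD28 ligands was low with class II low in one low group and low with class II high in the other.

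**Figure D4:**
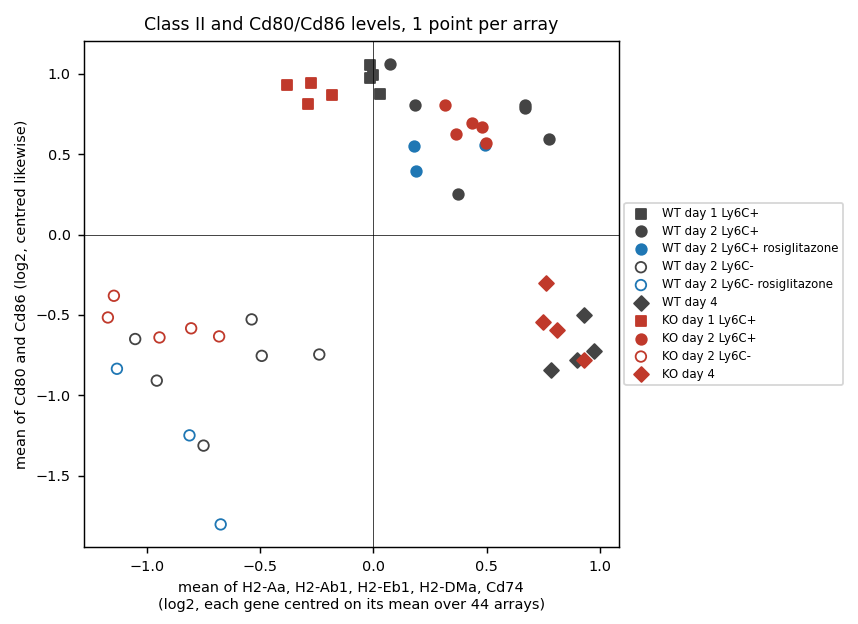
Mean centred log2 value of H2-Aa, H2-Ab1, H2-Eb1, H2-DMa and Cd74 (horizontal) against that of Cd80 and Cd86 (vertical), 1 point per array (squares, day 1; circles, day 2; diamonds, day 4; open, Ly6C-; grey, WT; blue, WT with rosiglitazone; red, KO). The 8 day 4 arrays sit at the lower right, the 14 Ly6C- arrays at the lower left and the day 1 and day 2 Ly6C+ arrays at the top.

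Over the 44 arrays, which share groups and so are not 44 independent points, r among these 5 class II genes ran from 0.87 to 0.99, and Ciita had r = 0.91 with their mean. Cd80 and Cd86 had r = 0.96 with each other but 0.27 and 0.34 with the class II mean, and Cd83 had -0.17. The genes most like the class II mean were Tlr9 (r = 0.95 over 44 arrays and 0.97 over 10 group means), Parp8 (0.90), Tmem176a, Rnase6, Pld4, Tmem176b, Tspan13 and Gbp9 (0.89). Tlr9 is the endosomal receptor for unmethylated DNA, and Pld4 and Rnase6 encode nucleases. Tmem150b, Kmo, Gbp4 and Lrrk1 were most like Ciita (0.93 to 0.95). Mefv, the pyrin gene, led for both Cd80 (0.96, with Il1r2, Smox and Trps1) and Cd86 (0.97, with Trps1, Ahr and Tet2), and Nfe2l2, Ubn1, Clk1 and Slc5a3 were most like Cd83 (0.90 to 0.91).

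KO and WT MFs were compared in 4 conditions, to ask whether loss of PPARg shifts these genes. At an adjusted p below 0.05 by limma, 0 of 9 genes passed in any of them, where 0.0351% of all genes passed at day 1, 1.88% in day 2 Ly6C+, 0.201% in day 2 Ly6C- and 0.0652% at day 4. Genes with an unadjusted p below 0.05 numbered 5, 1, 5 and 0. At day 1 these were H2-Eb1 (-0.57 ± 0.23), H2-Ab1 (-0.39 ± 0.15), Ciita (-0.30 ± 0.13), H2-Aa (-0.28 ± 0.14) and Cd74 (-0.23 ± 0.10; SE, adjusted p = 1.0 for each). For each of these 5, and for Cd83, all 4 KO arrays lay below all 4 WT arrays of day 1. How many of all genes separate in this way was not counted, so no result is read from it. At day 4 the 9 differences ran from -0.21 to 0.23, and the intervals allowed -0.51 to 0.11 for H2-Ab1 and -0.46 to 0.04 for Ciita.

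In day 2 MFs the KO differences depended on the WT arrays. In Ly6C- MFs H2-Ab1 differed by -0.54 ± 0.13 (SE, adjusted p = 0.0632) and Cd74 by -0.33 ± 0.09 (SE, adjusted p = 0.085). Against replicates 1 to 3 alone, 4 genes passed as lower in KO Ly6C- MFs, H2-Ab1 (-0.88, adjusted p = 1e-07), H2-Eb1 (-0.68), H2-Aa (-0.54) and Cd74 (-0.51), and 3 in Ly6C+ MFs, H2-Eb1 (-0.56), Ciita (-0.37) and H2-Ab1 (-0.36). Against replicates 4 to 6 alone, 0 passed in either subset, and in Ly6C+ MFs the estimates for H2-Eb1 (0.45), H2-Aa (0.31) and H2-Ab1 (0.22) had the opposite sign. With replicates 1 to 3, 15.1% of all genes passed in Ly6C+ and 14.4% in Ly6C- MFs, and with replicates 4 to 6, 1.62% and 0.115%. Without Ly6C- replicate 4, 5 or 6 of WT, H2-Ab1 passed (-0.58, -0.61 and -0.63), and Cd74 with it without replicate 5 or 6. Without WT Ly6C+ replicate 6, Ciita passed in Ly6C+ MFs (-0.38, adjusted p = 0.0275).

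The sets of WT day 2 arrays differed in the class II genes themselves. For H2-Eb1 in Ly6C+ MFs, replicates 1 to 3 read 11.85, 11.68 and 11.80 and replicates 4 to 6 read 10.83, 10.59 and 10.88. The mean of the first set exceeded that of the second by 1.01 for H2-Eb1, 0.58 for H2-Ab1, 0.55 for H2-Aa, 0.22 for Cd74 and 0.11 for H2-DMa in Ly6C+ MFs, and by 0.75, 0.68, 0.45, 0.35 and 0.24 in Ly6C- MFs. Cd80 differed by 0.06 and 0.20, and Cd86 by -0.01 and 0.36. The corresponding differences of Lyz2 were -3.95 and -3.68. Whether the class II shift is tied to what sets these arrays apart was not tested.

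**Figure D5:**
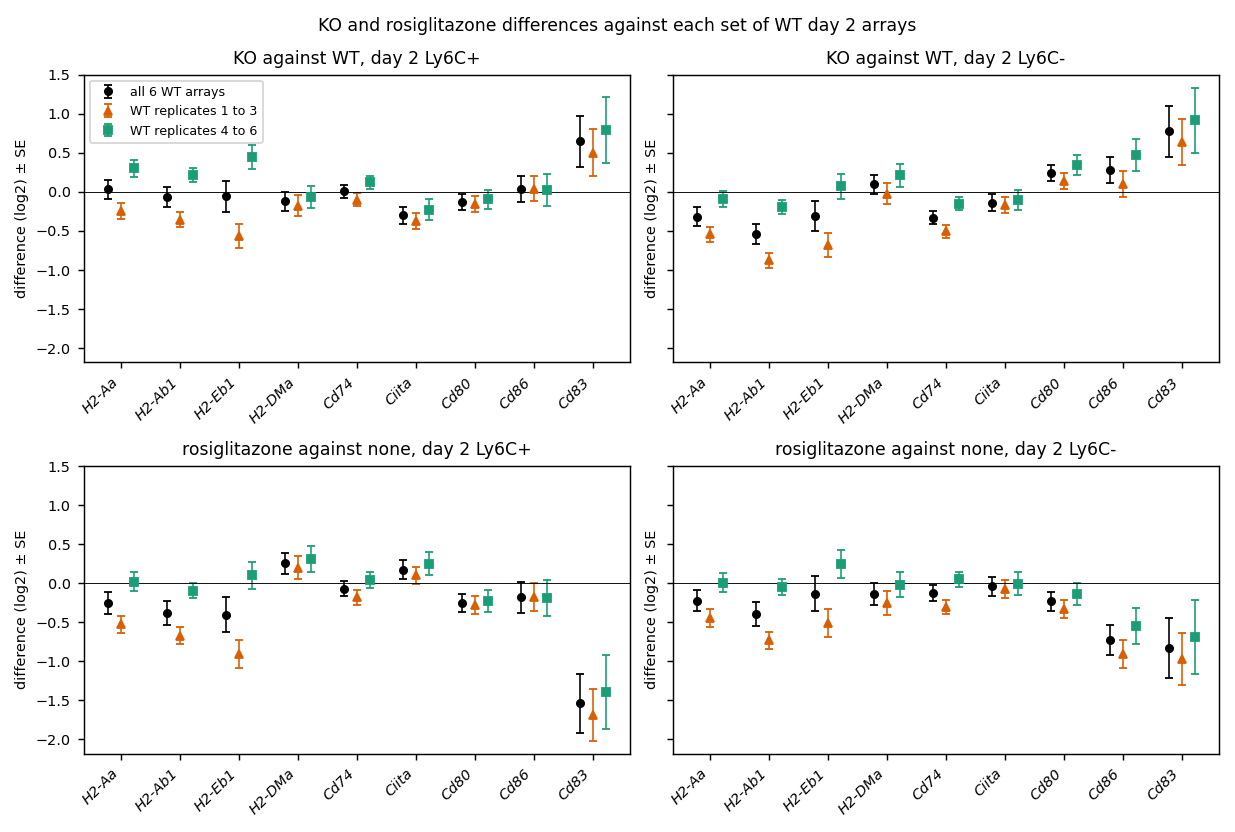
Log2 difference ± SE of each of the 9 genes for KO against WT (top) and rosiglitazone against none (bottom) in day 2 Ly6C+ (left) and Ly6C- MFs (right), computed with all 6 WT arrays (circles), replicates 1 to 3 (triangles) or replicates 4 to 6 (squares). For H2-Aa, H2-Ab1 and H2-Eb1, and by less for Cd80 and Cd83, the triangles lie below the squares in each panel. In the panel of KO against WT in Ly6C+ MFs they lie on opposite sides of 0 for H2-Aa, H2-Ab1 and H2-Eb1. The marks for Cd80 and Cd83 stay on one side of 0 within each panel.

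Rosiglitazone was compared with no drug in each day 2 subset, to ask whether activating PPARg shifts these genes. In Ly6C+ MFs 1 of 9 genes passed, Cd83, which was lower, where 11.1% of all genes passed. Centring took the share of rises among all calls from 49.6% to 65.3%. Cd83 read 9.009, 9.998 and 9.679 with the drug and ran from 9.55 to 11.76 without it, with a median of 11.30. It fell by 1.54 ± 0.38 (SE, 2.91-fold, adjusted p = 0.00678). The lowest untreated array was replicate 4, and 1 drug array lay below it. Cd83 differed by -1.68 (adjusted p = 0.00018) with replicates 1 to 3, by -1.39 (adjusted p = 0.118) with replicates 4 to 6, by -1.26 (adjusted p = 0.0868) without drug replicate 1, and did not pass when only these 2 groups were fitted (adjusted p = 0.132).

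Class II genes under rosiglitazone showed the same dependence. With all 6 WT arrays, H2-Ab1 in Ly6C+ MFs differed by -0.38 ± 0.15 (SE, adjusted p = 0.0978) and H2-Eb1 by -0.40 ± 0.23 (SE, adjusted p = 0.269). With replicates 1 to 3 they differed by -0.67 (adjusted p = 1.3e-05) and -0.91 (adjusted p = 0.00014), H2-Aa by -0.53 (adjusted p = 0.00046), and 27.3% of all genes passed. With replicates 4 to 6 the values were -0.09, 0.10 and 0.02, none passed, and 1.55% of all genes passed. Without WT Ly6C+ replicate 4 or 6, 2 genes passed, Cd83 with Cd80 (-0.34) or with H2-Ab1 (-0.46).

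In Ly6C- MFs 0 of 9 genes passed, 3 had an unadjusted p below 0.05, and 0.0351% of all genes passed. Cd86 differed by -0.73 ± 0.19 (SE, adjusted p = 0.19), Cd83 by -0.83 ± 0.38 (SE, adjusted p = 0.481) and H2-Ab1 by -0.39 ± 0.15 (SE, adjusted p = 0.392). Cd83 read 8.87, 9.58 and 11.25 with the drug, so that replicate 3 lay apart from the other 2. With WT replicates 1 to 3, H2-Aa, H2-Ab1, Cd74, Cd83 and Cd86 passed as lower, where 12.8% of all genes passed, and with replicates 4 to 6 none did, where 0.0150% of all genes passed. Cd86 alone passed without WT Ly6C- replicate 4 (-0.90, adjusted p = 0.00343) or without drug replicate 3 (-1.06, adjusted p = 0.00699).

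The rest of the class II pathway was followed with 18 listed genes, of which 16 had a probe set of their own. In WT day 2 Ly6C- MFs 4 were higher and 6 lower, with a median of 0.00, where 45.2% of all genes passed and 23.0% passed as lower. Those higher included Marchf8 (0.99, adjusted p = 6.1e-14), a ubiquitin ligase, and the proteases Ctsl (0.91) and Ctss (0.60), which degrade the invariant chain. H2-Eb2 (-0.51) and Marchf1 (-0.38), which encodes MARCH1, were lower. At day 4 in WT, 10 rose and 2 fell relative to day 2 Ly6C+, with a median of 0.33 against -0.09 for all genes, led by Marchf1 (0.78), Ctss (0.75), Marchf8 (0.65) and Ctsl (0.59). In KO 8 rose and 2 fell, with a median of 0.16. Of all genes, 23.8% rose and 26.0% fell at day 4 in WT, and 22.3% and 22.5% in KO. The probe set shared by H2-DMb1 and H2-DMb2, the partners of H2-DMa, had its highest mean at day 4 in WT (9.40 ± 0.03, SD, n = 4) and its lowest in WT Ly6C- MFs (7.95 ± 0.16, SD, n = 6).

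Class I genes, which present peptides to CD8 T cells, moved both ways between the WT subsets. Of 12 measured, 2 were higher and 2 lower in WT Ly6C- MFs, where 45.2% of all genes passed and 23.0% passed as lower. Nlrc5, the class I transactivator related to Ciita, differed by -0.71 and Tap1, a peptide transporter subunit, by -0.54. At day 4 in WT 7 rose and 1 fell, with a median of 0.41, led by Psmb9 (0.97) and Tapbp (0.97), Tap1 (0.92) and Nlrc5 (0.52). In KO 5 rose and 2 fell, with a median of 0.25. Of all genes, 23.8% rose and 26.0% fell at day 4 in WT, and 22.3% and 22.5% in KO. Of 7 genes of interferon gamma signalling, the pathway that induces Ciita in MFs, 5 were lower in WT Ly6C- MFs, among them Jak2 (-0.83), Irf1 (-0.71), Ifngr1 (-0.54) and Ifng (-0.21). At day 4 in WT 3 rose and 3 fell, with Irf1 at 0.58 and Jak2 at -1.30. In KO 0 rose and 3 fell, with Irf1 at 0.10 (adjusted p = 0.667) and Jak2 at -1.31.

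Other ligands of T cell costimulation went both ways at day 4. Of 16 measured, 6 rose and 5 fell in WT, where 23.8% of all genes rose and 26.0% fell. Tnfsf9, the ligand of 4-1BB, (-2.88), Pvr (-2.18) and Tnfsf14 (-2.08) fell, while Cd276 (0.83) and the inhibitory Vsir (0.65) rose. In WT Ly6C- MFs 5 of 16 were lower and 0 higher, led by Tnfsf14 (-1.26), Icosl (-0.84) and Pvr (-0.63) and Pdcd1lg2 (-0.59). With rosiglitazone in Ly6C+ MFs 4 were lower and 1 higher, among them Cd274 (-1.04), which encodes PD-L1, Pvr (-0.99), Cd40 (-0.65) and Pdcd1lg2 (-0.43). Of all genes, 23.0% were lower in WT Ly6C- MFs and 11.1% passed with rosiglitazone in Ly6C+ MFs.

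Other cells that express class II could lie in these gates, and their markers moved in part with it. In bulk samples, fewer cells of a type and less RNA per cell cannot be told apart. Of 13 dendritic cell markers, 7 were lower and 0 higher in WT Ly6C- MFs, with a median of -0.27, led by Cd209a (-1.39), Kmo (-0.93), Flt3 (-0.76) and Dpp4 (-0.68). At day 4 in WT 5 rose and 3 fell relative to day 2 Ly6C+, led by Clec9a (1.00), Kmo (0.79) and Dpp4 (0.78), with Ccr7 (-0.55) lower and a list median of -0.03. In KO 6 rose and 2 fell, with a median of 0.33. Of all genes, 23.0% were lower in WT Ly6C- MFs. At day 4, 23.8% rose and 26.0% fell in WT, and 22.3% and 22.5% in KO. The mean of the list was 6.62 to 6.74 in WT day 2 Ly6C+, 6.13 to 6.26 in Ly6C- and 6.79 to 6.88 in day 4 MFs. Of the defining markers, mean Zbtb46 lay between 6.62 and 6.92 and Xcr1 between 5.80 and 6.23 in all 10 groups, and Clec9a at 6.46 in WT day 4. Array medians ran from 6.64 to 6.77 over all probe sets and from 6.81 to 6.97 over those with 1 symbol. Their part in the class II differences was not tested.

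Markers of B cells, T and NK cells, neutrophils and MFs were followed as well. The mean of 9 B cell markers lay between 5.66 and 5.94 on every array, and 1 of the 9, Cd79b, exceeded the array median of probe sets with 1 symbol. Cd79b rose by 1.42 at day 4 in WT. The mean of 11 T and NK cell markers was 5.65 to 5.86 in WT day 2 Ly6C+, 5.53 to 5.67 in Ly6C- and 6.05 to 6.08 in day 4 MFs. Of these 11, 6 were lower and 1 higher in WT Ly6C- MFs, and 3 rose at day 4 in WT, with Cd4 (2.15) and Cd28 (1.65) higher at day 4. Cd3e had group means of 6.57 to 6.98, Cd3d of 5.33 to 5.61 and Cd3g of 4.73 to 5.01, and none of these 3 passed at day 4. The mean of 10 neutrophil markers was 6.72 to 6.95 in WT day 2 Ly6C+, 6.56 to 6.77 in Ly6C- and 6.35 to 6.46 in day 4 MFs, and 8 of the 10 fell at day 4, Cxcr2 by 1.38 on the log2 scale. Of 10 MF and monocyte markers, 7 rose and 3 fell at day 4 in WT, with Mertk (2.14), Itgax (2.04) and Cx3cr1 (1.66) up and Cd14 (-1.74) and Ccr2 (-1.33) down. Of all genes, 23.0% were lower in WT Ly6C- MFs, and 23.8% rose and 26.0% fell at day 4 in WT. The part of these markers in the results was not tested.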

How the data were processed

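The authors deposited log2 values made with RMA for 35556 probe sets on 44 arrays (per the labels). The sources used here do not name the software version or the probe set definition. Values were used as deposited, ran from 1.46 to 13.6, and array medians from 6.64 to 6.77; 0 pairs of arrays were identical. Probe sets with 1 symbol (21789) were kept and those with several (1621) or none (12146) left out; a gene was represented by its brightest probe set. One mean per group was fitted over 44 arrays with limma 3.58.1 in R 4.3.3 (34 residual and 6.46 prior degrees of freedom), in 15 comparisons and 3 interactions. Genes passed at an adjusted p (Benjamini-Hochberg over 19938 genes, two-sided) below 0.05. The procedure was tested on simulated data. Intervals are 95%.

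The genes and lists were chosen with earlier results of these data known. All 9 genes are named, with up to 4 called genes of largest difference per list, the 8 genes most like the class II mean, and 4 most like each of Ciita, Cd80, Cd83 and Cd86. Others, such as Ccr7, Ifng, Cd3e, Xcr1 and Zbtb46, were named after their values were seen. Same-numbered arrays correlated above 0.1 in every pair only between the rosiglitazone subsets (r 0.13 to 0.44, 3 pairs); with the number as a block, 8 genes remained called there. Alternatives were array centring, a filter on dim probe sets, the mean of probe sets, eBayes with trend and robust, the compared groups alone, a replicate block, each set of WT day 2 arrays and each array left out.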

Additional observations from a re-analysis of the deposited data

Results flagged for a closer look

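Among 72 sets of 4 to 6 arrays of 1 gene in 1 group, 5 held an array far from the others by Dixon's ratio of gap to range at the 95% level, where chance alone gives about 1 in 20. Cd83 in WT day 2 Ly6C+ replicate 4 read 9.55, below the 11.13 to 11.76 of the other 5 arrays. Cd83 in WT day 2 Ly6C- replicate 4 read 9.25, below 10.83 to 11.29. Cd86 in the same Ly6C- array read 8.51, below 9.41 to 9.73. H2-Ab1 in KO day 2 Ly6C+ replicate 4 read 12.03, above 11.77 to 11.81, and Cd80 in KO day 2 Ly6C+ replicate 5 read 10.91, above 10.55 to 10.65. None of the 27 interaction results of the 9 genes passed.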

How the results depend on the processing

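Of 1269 results for single genes under alternatives, 1213 kept their call, 19 lost it, 37 gained it and, of the called values, 0 turned direction. Uncalled estimates did turn, such as that of H2-Eb1 for KO against WT in day 2 Ly6C+ MFs (-0.06, and 0.45 with WT replicates 4 to 6 alone). Of 141 counts of genes called, 128 stayed within 1.5 times. With WT day 2 replicates 1 to 3 alone, 3 genes were called for KO against WT in day 2 Ly6C+, 4 in Ly6C-, 4 for rosiglitazone in Ly6C+ and 5 in Ly6C- MFs, and with replicates 4 to 6 alone 0 for rosiglitazone in Ly6C+. Without replicate 4 in both subsets, an alternative chosen after its Cd83 value was seen, 1 gene was called for KO against WT in Ly6C-, 3 for rosiglitazone in Ly6C+ and 2 in Ly6C- MFs. Fitted on the compared groups alone, 1 gene was called for WT day 2 against day 1 and 0 for rosiglitazone in Ly6C+ MFs. With the replicate number as a block, also fitted on the compared groups alone, 5 genes were called for WT day 4 against day 2 (7 without the block), 4 for rosiglitazone in Ly6C+ and 1 in Ly6C- MFs, and no other count moved by over 1.5 times. WT day 2 arrays with no same-numbered partner do not enter the blocked estimate, and the blocked rosiglitazone estimates equal those with WT replicates 1 to 3 alone (H2-Ab1 -0.67). What same-numbered arrays share is not stated in the labels. Between the day 2 subsets, 5 of 6 same-numbered pairs correlated above 0.1 in WT (r 0.01 to 0.60). In KO 4 of 5 did (r 0.04 to 0.29). Centring, the dim filter, the mean of probe sets and the trend setting moved no count by over 1.5 times; centring ended the call of H2-DMa for WT day 4 against day 2 (0.28, adjusted p = 0.0588). The settings with WT day 2 arrays left out, and those on the compared groups alone, used fewer arrays; otherwise the cause was not tested.

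With 1 array left out, counts ran from 8 to 9 for the WT subsets, 8 to 8 in KO and 7 to 8 with rosiglitazone; from 4 to 6 and 5 to 6 for day 2 against day 1 in WT and KO; from 6 to 9 and 5 to 8 for day 4 against day 2; from 6 to 7 for day 4 against Ly6C- in either genotype; from 0 to 1 and 0 to 2 for KO against WT in day 2 Ly6C+ and Ly6C-, and 0 to 0 at day 1 and day 4; and from 0 to 2 and 0 to 1 for rosiglitazone in Ly6C+ and Ly6C- MFs. The interactions stayed at 0. The number of arrays limits the precision.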
